A study of Mus musculus with 2931 samples.

Results

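Veins of the mouse lung were described here through 6 genes: Nr2f2, Slc6a2, Car8, Moxd1, Lmcd1 and Wfdc1. They are 6 of the 18072 genes in the deposited count table, where all 6 were found by symbol. Measured values of these data had selected most of them. Slc6a2, Car8 and Moxd1 were chosen because they were high in cells labelled venous, Lmcd1 on its difference between days P1 and E18.5 in those cells, and Wfdc1 on its difference between Car4- capillaries at P1 and embryonic endothelium at E18.5. Nr2f2 is a long-known vein gene. Levels across cell labels and those contrasts are therefore given as descriptions that support nothing further.

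Veins and arteries take on separate identities early in vessel development, and each keeps its identity through its own transcription factors. In veins that role is held by COUP-TFII, the orphan nuclear receptor encoded by Nr2f2, which restrains Notch signalling and with it the arterial programme, and which also works beside Prox1 in lymphatic endothelium. The lung endothelium is known for clearing amines such as norepinephrine and serotonin from the blood, and Slc6a2 encodes the norepinephrine transporter. Car8 encodes a carbonic anhydrase-related protein that lacks the enzyme activity and binds an IP3 receptor. Moxd1 encodes a copper monooxygenase-like protein of the family of dopamine beta-hydroxylase. Lmcd1 encodes a LIM-domain protein that binds GATA6 and limits its activity, and Wfdc1 a secreted protein with a whey acidic protein domain.

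Distal lung endothelial cells (EC) were sorted into plates and their RNA was read as single-cell libraries cut with the Tn5 transposase. The 2931 cells came from 10 mice, 1 female and 1 male in each of 5 groups. One group was taken before birth on embryonic day E18.5, and P1, P7 and P21 were taken on those days after birth, all with the treatment label normal (called normal air here). The last was P7 with the label hyperoxia, which is breathing of air with raised oxygen. Strain, genotype and oxygen level are not given in the sources used here, nor whether a mouse name is 1 animal or several. Sex is nested in the mouse, with 1 of each sex per group, so the p-values measure the spread between these mice only. Of the cells, 2694 were sorted by CD31, a surface protein of endothelium, 13 by CD45, and 224 had the gate label mesench. Depth per cell ran from 42095 to 2967985 reads (median 621406).

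The authors' label venous EC was given to 203 cells. The female and the male mouse had 11 and 11 of them at E18.5, 17 and 50 at P1, 21 and 23 at P7, 13 and 4 at P21, and 23 and 30 under hyperoxia. For each mouse and label the reads of all cells were added up, and levels are CPM, the reads of a gene per 1000000 reads of such a sum. The venous sums held between 5372406 and 58800130 reads. Sums of fewer than 8 cells were left out of tests, which removed P21 from the venous tests because its male mouse had 4 such cells. Other vein markers were high in these cells: Vwf, Vcam1, Bst1, Amigo2, Prss23, Cpe, Ephb4 and Nrp2 together reached 1821 to 16140.5 CPM in the 10 venous sums, against 403 to 2670.0 CPM in arterial EC I and 249 to 654 CPM in Car4- capillaries (sums of at least 8 cells). The ranges of veins and arterial EC I overlapped. In the P1 male mouse the 50 venous cells were at 1821 CPM and the 10 arterial EC I cells at 2670.0 CPM. The highest venous value came from the 4 cells of the P21 male mouse. In the 4 lymphatic sums of at least 8 cells the same 8 markers reached 2238 to 4175 CPM, so they do not set veins apart from lymphatics. Prox1, the defining lymphatic factor, lay between 0 and 40.2 CPM in the venous sums. Its median was 525 CPM in the 3 lymphatic sums of at least 8 cells in normal air. A range stands beside a median here, so overlap was not judged for Prox1. The full list of 8 lymphatic markers that holds Prox1 was not absent from veins. It summed to 1688 to 3027 CPM in the 10 venous sums, against 9705 to 11389 CPM in the 4 lymphatic sums.

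Slc6a2 and Moxd1 were closest to the vein label. At the level of whole cells, venous EC made up 203 of the 2931 cells and held 92.8% of all Slc6a2 reads and 94.3% of all Moxd1 reads. The gene Slc6a2 lies on chromosome 8 from 92960079 to 93001667, plus strand, and Moxd1 on chromosome 10 from 24223517 to 24302790, plus strand, in GENCODE M21 on GRCm38. Neither gene had a read in the lymphatic or arterial EC I cells when each cell was thinned to 50000 reads so that depths matched: 0 of 82 lymphatic cells allows a share of up to 3.66%, and 0 of 93 arterial EC I cells up to 3.23%. In venous EC 61.7% of 201 such cells had a Slc6a2 read and 32.3% had a Moxd1 read. Such limits speak of counting error alone, because PCR copies of a molecule are read more than once.

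Car8 and Nr2f2 reached further beyond the veins, each into another vessel type. Venous EC held 77.9% of all Car8 reads, and Car8 (chromosome 4, 8143362 to 8239041, minus strand) had a read in 91.0% of thinned venous cells. Outside veins its highest share of cells with a read was in arterial EC II, at 30.95%, against 8.60% in arterial EC I and 0 of 82 lymphatic cells. In sums of at least 8 cells Car8 lay at 308 to 1320.1 CPM in veins, at up to 145 CPM in arterial EC I and at up to 0.0573 CPM in lymphatic EC, so the vein levels did not overlap those of any other label with such sums. Nr2f2 (chromosome 7, 70351944 to 70366735, minus strand) was at 565 to 686 CPM in lymphatic EC and at 321 to 753 CPM in veins, and these ranges overlapped. Venous EC held 45.4% and lymphatic EC 21.4% of its reads. Next in order came Early Car4- capillaries at 35.8 to 79.7 CPM and proliferative EC at 23.3 to 100.2 CPM, which overlapped each other and the embryonic EC at 35.7 and 38.2 CPM. Nr2f2 was lowest in arterial EC I at 0 to 6.90 CPM, a range that overlapped those of Late Car4- and Car4+ capillaries.

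Lmcd1 and Wfdc1 did not follow the vein label. Lmcd1 (chromosome 6, 112273758 to 112330425, plus strand) had 19.9% of its reads in venous EC, and its sums ran from 0 to 485 CPM in veins, from 96.8 to 498 CPM in lymphatic EC and from 0 to 2354 CPM in arterial EC I. The 3 ranges overlapped. They include the hyperoxia mice, and in normal air alone the upper ends were 200 CPM in lymphatic EC and 532 CPM in arterial EC I. These still overlapped the vein range, which kept its upper end of 485 CPM. Wfdc1 (chromosome 8, 119666365 to 119688222, plus strand) had 3.87% of its reads in venous EC and 80.0% in Car4- capillaries (the Early and Late labels as 1 class). That class holds 1463 of the 2931 cells, which enters its share of the reads. Its sums reached 256 CPM in veins, 752 CPM in Car4- capillaries and 1254 CPM in arterial EC I, and no read was found in lymphatic sums of at least 8 cells. By these levels the name venous identity gene does not describe Wfdc1, which reached higher CPM in Car4- capillaries and arterial EC I. Nor does it describe Lmcd1, which was as high in other vessel types.

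**Figure D1:**
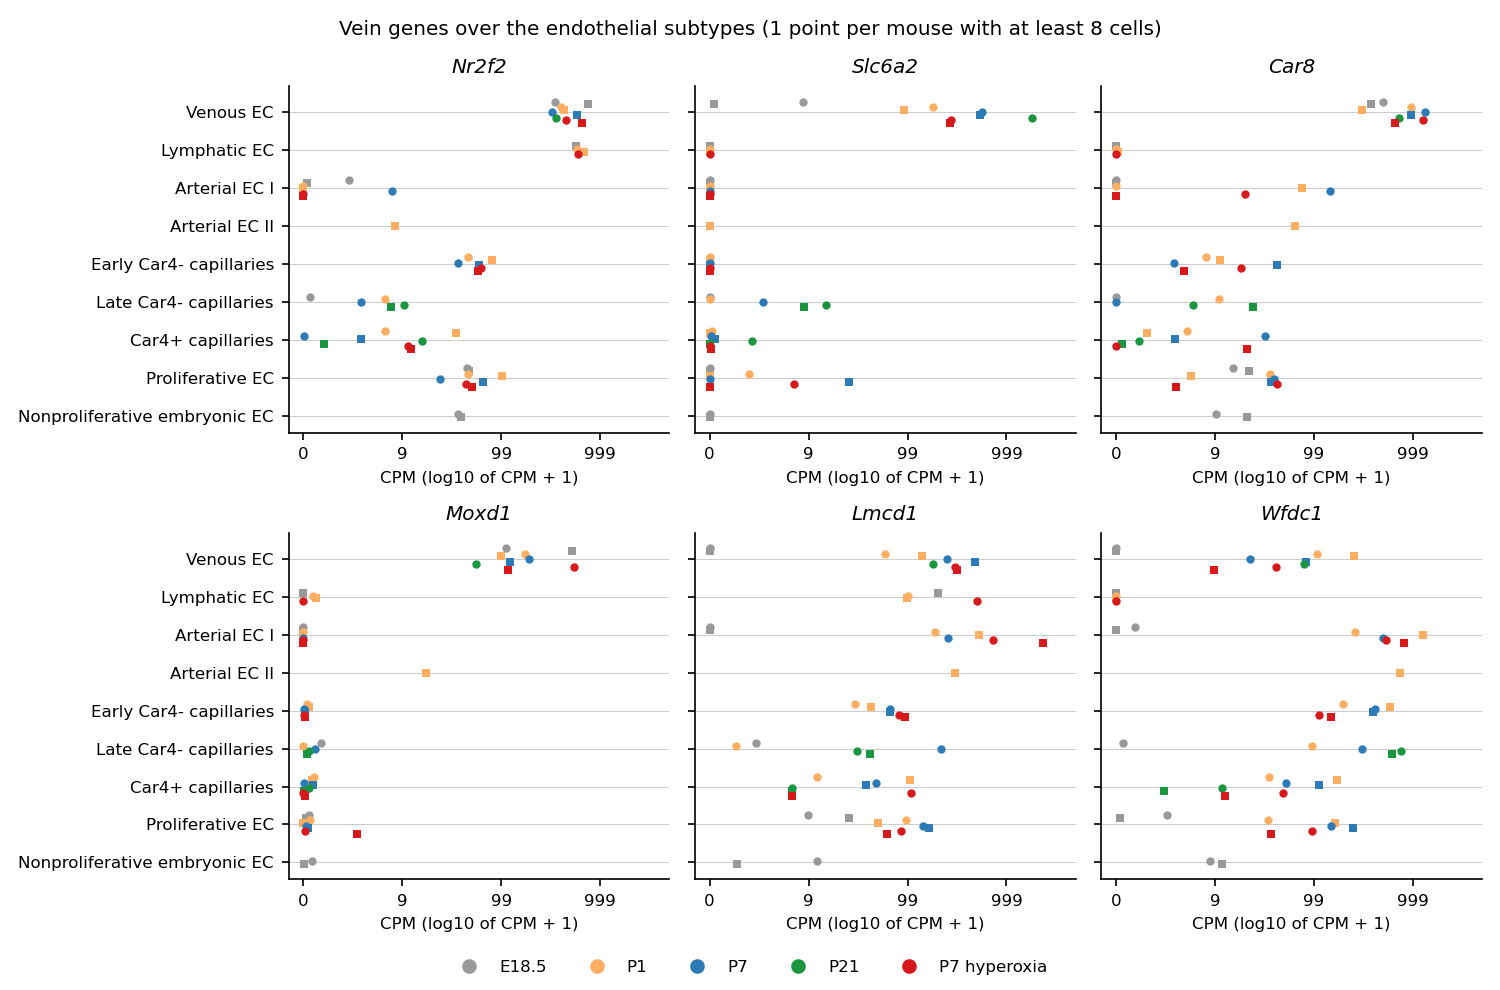
Level of the 6 genes by cell label, as log10(CPM + 1) of the reads summed per mouse, for sums of at least 8 cells. Circles are female and squares male mice, coloured by group; Slc6a2, Car8 and Moxd1 stand highest in venous EC, Nr2f2 in venous and lymphatic EC, and Wfdc1 in Car4- capillaries and arterial EC.

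The 4 genes Nr2f2, Slc6a2, Car8 and Moxd1 were also counted together in single cells. At 50000 reads per cell, 191 of 201 venous cells (95.02%) had reads of at least 2 of these 4 genes, as did 10 of 10 cells labelled proliferative venous EC. No lymphatic cell (0 of 82) and no arterial EC I cell (0 of 93) did, and the share was 2.39% in Early and 1.45% in Late Car4- capillaries and 4.62% in proliferative EC. In venous cells the count follows mostly from Nr2f2 (94.0% of cells) and Car8 (91.0%), which were both read in 172 of the 201. Slc6a2, Car8 and Moxd1 were also chosen as high in venous cells. These shares therefore do not show that the 4 genes occur together more than each alone would give. Of all 6 genes, 7 venous cells had every one and 1 had none. The share of venous cells with at least 3 of the 6 was 18.2% and 30.0% in the female and male E18.5 mice and lay between 75.0% and 92.3% in the other 8 mice. The same share was 21.4% of the 42 arterial EC II cells and 5.38% of the 93 arterial EC I cells. In the P7 female mouse it was 25.0% of 16 arterial EC I cells, so the E18.5 vein shares were not set apart from arteries. Within veins the genes were only loosely tied to each other: Car8 had a read in 95.2% of cells with Slc6a2 and in 84.4% of those without, Moxd1 in 33.9% and 29.9%, and Lmcd1 in 55.6% and 32.5%. Cells of all ages enter these shares, and Slc6a2 and Lmcd1 both differ between ages, so they are descriptions of the pooled cells.

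**Figure D2:**
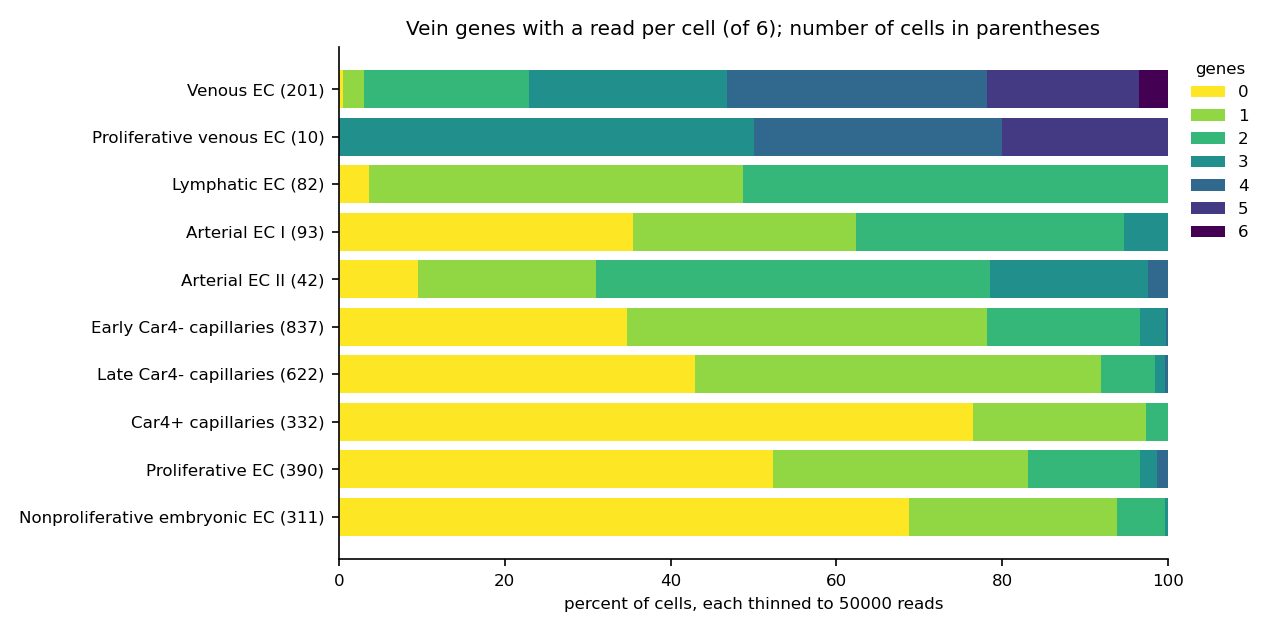
Share of cells (percent) by how many of the 6 genes had at least 1 read, for each cell label, with every cell thinned to 50000 reads. Venous EC, with 77.1% of cells at 3 genes or more, and the 10 proliferative venous EC stand apart from lymphatic EC, where 0 of 82 cells reached 3 genes. In arterial EC II 9 of 42 cells (21.4%) reached 3 genes.

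The proliferative venous EC came from the hyperoxia mice alone, with 5 cells in each. Car8 was at 1309 and 1076 CPM in the female and male sum, Slc6a2 at 108 and 199 CPM, and Nr2f2 at 224 and 337 CPM. Lmcd1 was at 160 and 172 CPM, Wfdc1 at 63.2 and 61.5 CPM, and Moxd1 at 62.8 and 12.5 CPM. All 6 genes were thus read in dividing vein cells of both mice, in sums under the minimum of 8 cells.

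Some Slc6a2 reads lay in cells outside the vein labels, 15 of which had more than 50 CPM (cells singled out after their values were seen). Of these, 9 carried the label Late Car4- capillaries. At P21 the highest had 2905, 1800 and 1353 CPM of Slc6a2, and in each of the 3 Moxd1 was at 0 and Car8 at no more than 6.58 CPM. The other genes were present in these 3 cells, with Nr2f2 at 65.8 to 280.4 CPM, Lmcd1 at 476 to 2642 CPM and Wfdc1 at 566 and 851 CPM in 2 of them. By contrast, 1 Late Car4- cell of the male hyperoxia mouse had Car8 at 1189.6 CPM and Moxd1 at 1403 CPM beside Slc6a2 at 148 CPM, with Nr2f2 at 18.9 CPM and no read of Lmcd1 or Wfdc1. Of the 6 remaining cells, 5 were labelled proliferative EC and 1 was a Car4+ capillary cell. As sums, the Car4- capillaries had Slc6a2 at 13.7 and 7.81 CPM in the female and male mice of P21.

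Birth was followed by comparing the venous cells of P1 with those of E18.5, which asks which vein genes differ once the lung is filled with air. Slc6a2 was at 7.71 and 0.112 CPM in the female and male E18.5 mice and at 179 and 91.9 CPM in those of P1, with no overlap. In the E18.5 female mouse 1 cell held 89.9% of the 79 reads. The means were 3.91 ± 5.37 and 135 ± 61.3 CPM (SD, n = 2 each), the reads pooled over each group gave a ratio of 25.3, and the log2 difference was 4.84 (SE 1.18). It did not pass edgeR's quasi-likelihood test after Benjamini-Hochberg adjustment over 12326 genes (adjusted p = 0.308, unadjusted 0.00142).

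That call for Slc6a2 at birth depended on the tool and on single mice. DESeq2 gave an adjusted p of 0.000113, edgeR without a filter on low counts 2.36e-07 and edgeR on thinned cells 0.00459. Leaving out the female or the male mouse of E18.5 gave 0.000427 or 0.0196, with log2 differences of 10.10 and 3.87, and leaving out a hyperoxia mouse, which is not in the comparison but shares its estimate of spread, gave 0.0430 or 0.0499. The female mice of E18.5 and P1 shared a sequencing run, and between them Slc6a2 was 23.2 times as high at P1. Mesenchymal and smooth muscle markers summed to 2.83 and 29.9 CPM in the E18.5 venous cells and to 28.7 and 26.2 CPM in those of P1; these ranges overlapped. The nerve markers Dbh and Tubb3, which would mark the nerve cells known for this transporter, had no read in any of the 10 venous sums.

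Lmcd1 and Wfdc1 had no read in the 22 venous cells of E18.5 and were present in both mice of P1. Lmcd1 was at 58.3 and 138 CPM in the female and male mice of P1, and Wfdc1 at 106 and 256 CPM. At E18.5 0 of 22 cells allows a share of up to 13.6% of cells with a read, and 3 reads of the 19213872 in that group would be 0.156 CPM. Set against that floor over the group, the pooled P1 reads gave ratios of 803 for Lmcd1 and 1489 for Wfdc1. Most of these reads came from the male mouse. For the P1 female mouse alone the ratios to the floor were 373 and 678, and for the male mouse alone 883 and 1639.6. The floor takes reads as independent, but the reads of a gene cluster in few cells. These ratios are therefore not lower bounds on the difference, and the limit by cells is the 13.6% above. In the P1 female mouse 1 cell held 80.1% of the Wfdc1 reads. Both genes had reads in 40.9% of the 66 thinned venous cells of P1. Genes detected per venous cell at 50000 reads also differed between these ages without overlap, with medians of 3037 and 2329 at E18.5 and 4148 and 3617 at P1, and their part in the zeros was not tested. The P7 female mouse, with a median of 2626 genes, had reads of both Lmcd1 and Wfdc1. Its sum held 21 cells and 25923638 reads, against 11 cells and 10252006 or 8961866 reads in the E18.5 mice. It therefore cannot decide that part.

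Lmcd1 was 1 of 2 genes that edgeR called in this comparison (adjusted p = 0.00776), which is the contrast it was chosen on, and Wfdc1 had an adjusted p of 0.0670. Over all genes 0.0162% were called, and 1074 of the 12326 had an unadjusted p under 0.05. With DESeq2 543 genes passed and with limma 3. Without single mice edgeR called between 4 and 666 genes. Wfdc1 passed with DESeq2 (adjusted p = 1.66e-10) and in 7 of the 8 fits that each left out 1 mouse, the exception being the fit without the P1 male mouse (adjusted p = 0.0983). With sex as a replicate block edgeR gave Wfdc1 0.202. The mice of both ages did not overlap for 3 of the 6 genes, all higher at P1 (Slc6a2, Lmcd1 and Wfdc1), and for 37.2% of all genes tested. The 6 genes had a median log2 difference of 2.58, which lies between Car8 and Slc6a2, and all genes had 0.18. The median of the 6 counts Lmcd1, which was chosen on this contrast. Setting it beside that of all genes therefore supports nothing about the 6 genes. With Lmcd1 and Wfdc1 at their ratios to the floor it is the same, which does not lift that limit.

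The other vein genes gave no such difference at birth. Nr2f2 was at 344 and 753 CPM at E18.5 and at 400.0 and 432 CPM at P1 (log2 difference -0.49, SE 0.54, adjusted p = 0.800 with edgeR). Car8 was at 499.6 and 381 CPM and then at 963 and 308 CPM (0.31, SE 0.57, adjusted p = 0.901 with edgeR). Moxd1 was at 111 and 512 CPM and then at 172 and 98.5 CPM (-1.31, SE 0.79, adjusted p = 0.597 with edgeR). For each of these 3 genes the 2 mice of 1 age enclosed or overlapped those of the other. In the E18.5 female mouse 78.4% of the Moxd1 reads came from 1 cell.

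**Figure D3:**
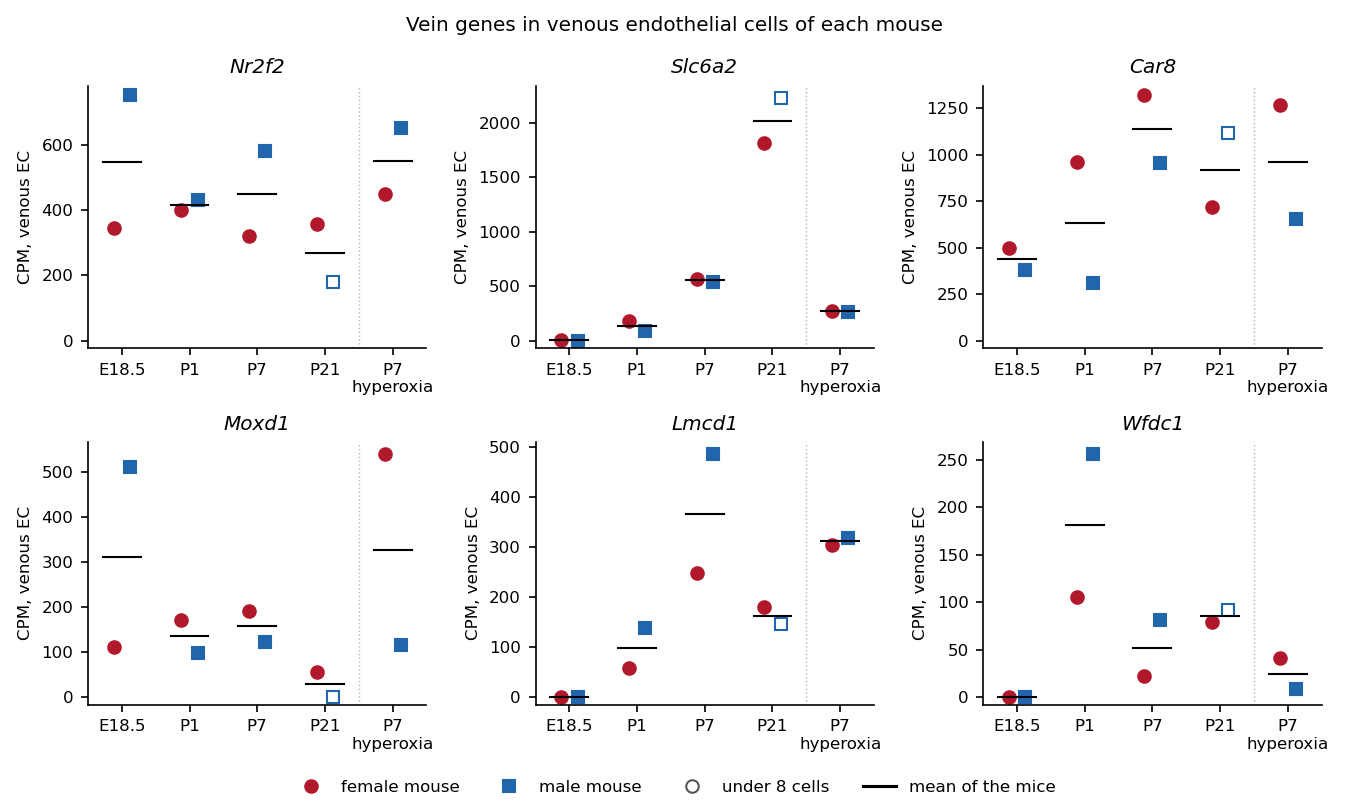
Level of the 6 genes in venous EC, in CPM of the reads summed per mouse on a linear axis, by group. Circles are female and squares male mice, the open symbol is the P21 male mouse with 4 cells, and lines are group means; Slc6a2 stands higher in each successive age in both mice and lower under hyperoxia than at P7, while Lmcd1 and Wfdc1 are at 0 at E18.5.

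From P1 to P7 the vein levels of Slc6a2 and Lmcd1 were higher and that of Wfdc1 lower in both mice. Slc6a2 was at 567 and 543 CPM in the female and male mice of P7 (555 ± 17.4, SD, n = 2), a pooled ratio to P1 of 5.34 and a log2 difference of 2.01 (SE 1.03). Lmcd1 was at 248 and 485 CPM (1.76, SE 0.67) and Wfdc1 at 21.6 and 81.5 CPM (-1.97, SE 1.04). The 6 genes had an adjusted p of 1 with edgeR in this comparison, and the unadjusted values were 0.0749 for Slc6a2, 0.0231 for Lmcd1 and 0.0854 for Wfdc1. Non-overlap was found for these 3 genes and for 35.3% of all genes.

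Nr2f2 at 321 and 581 CPM, Car8 at 1320.1 and 959 CPM and Moxd1 at 191 and 122 CPM overlapped their P1 levels at P7. No gene of the table was called between P1 and P7 in veins (0.0% of 12326 with edgeR, 0 with limma, 75 with DESeq2), with 396 at an unadjusted p under 0.05. Leaving out 1 mouse gave 0 to 9 calls. The comparison shares its P1 mice with the one at birth. No CD31-gate cells of P1 and P7 mice shared a sequencing run, so run and age cannot be told apart here.

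At P21 Slc6a2 was at 1815 CPM in the female mouse and 2229 CPM in the male mouse, above each of the other 8 mice. The male sum holds 4 cells, of which 1 gave 74.3% of the reads, and no test was made. The pooled ratio of P21 to P7 was 3.45, and every 1 of the 17 thinned cells had a Slc6a2 read (100%), against 86.4% at P7, 47.0% at P1 and 4.76% at E18.5. Lmcd1 was at 179 and 145 CPM and Wfdc1 at 78.9 and 91.3 CPM, both of which came from 1 cell in the male mouse. Nr2f2 was at 359 and 181 CPM, Car8 at 719 and 1119 CPM, and Moxd1 at 55.2 and 0 CPM. With CD31-gate cells alone, the P21 means were 1337 CPM for Slc6a2 in place of 2022, 340.3 for Lmcd1 in place of 162, and 189 for Wfdc1 in place of 85.1. Mesenchymal markers summed to 27.0 and 287 CPM in these sums, and their part in the levels was not tested.

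Raised oxygen was the last comparison in veins, at P7. Slc6a2 was at 273 and 266 CPM in the venous cells of the female and male hyperoxia mice, against 567 and 543 CPM in normal air, and the mice did not overlap. The means were 269.8 ± 5.12 and 555 ± 17.4 CPM (SD, n = 2 each), a pooled ratio of 0.477 and a log2 difference of -1.03 (SE 1.00). It did not pass the test with edgeR (adjusted p = 1, unadjusted 0.323), and over the alternative fits the log2 difference lay between -1.14 and -0.83. The share of thinned cells with a Slc6a2 read was 69.8% of 53 cells under hyperoxia and 86.4% of 44 cells in normal air. The 2 male mice shared a run, and between them the ratio was 0.490.

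Markers of other cell types also differed between these venous sums. Mesenchymal and smooth muscle markers summed to 114 and 116 CPM in the venous cells of the hyperoxia mice and to 2.28 and 50.8 CPM in those of normal air. Leukocyte markers summed to 10.3 and 9.84 CPM under hyperoxia, with 5 and 4 of the 6 markers at 0, and to 0 and 0.186 CPM in normal air. The part of either in the Slc6a2 levels was not tested. Of the 6 genes Slc6a2 was the 1 without overlap between the groups, where 34.1% of all genes did not overlap. No gene was called (0.0% of 12326 with edgeR, 0 with limma, 93 with DESeq2), and 331 had an unadjusted p under 0.05. Leaving out 1 mouse gave 0 to 9 calls.

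The other 5 genes overlapped between hyperoxia and normal air. Nr2f2 was at 449 and 653 CPM under hyperoxia (log2 difference 0.33, SE 0.54), Car8 at 1269 and 656 CPM (-0.26, SE 0.57) and Lmcd1 at 303 and 318 CPM (-0.21, SE 0.65). Moxd1 was at 539 and 115 CPM (1.02, SE 0.79), and it rested on the female hyperoxia mouse: without it the log2 difference was -0.34. Wfdc1 was at 40.5 and 8.83 CPM (-1.06, SE 1.02), and without the P7 male mouse that difference was 0.0751. Each of the 5 genes had an adjusted p of 1 with edgeR, and with standard errors of 0.54 to 1.02 differences of these sizes were not detectable.

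Outside the veins the capillary lineage shows where Lmcd1 and Wfdc1 stood at the same ages. Wfdc1 was at 7.94 and 10.9 CPM in the embryonic EC of the female and male E18.5 mice and at 189.6 and 584 CPM in the Car4- capillaries of P1. Its log2 difference was 5.53 (SE 0.60, adjusted p = 0.000493 with edgeR), in the contrast it was chosen on, in which age and label change together. Lmcd1 was at 11.03 and 0.898 CPM and then at 26.4 and 41.2 CPM (2.67, SE 0.81, adjusted p = 0.287 with edgeR). Nr2f2 was at 35.7 and 38.2 CPM and then at 42.1 and 79.3 CPM (0.85, SE 0.53, adjusted p = 0.649 with edgeR). Here edgeR called 0.494% of 14967 genes and 34.6% did not overlap, which held for 4 of the 6 genes, all higher at P1 (Nr2f2, Slc6a2, Lmcd1 and Wfdc1). Slc6a2 was below 1 CPM in all 4 of those sums.

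Whether the difference between E18.5 and P1 was larger in veins than in capillaries was tested with an interaction term, in a model that pairs the sums of a mouse. The difference for Lmcd1 had an adjusted p of 0.0268 with edgeR and shares the contrast Lmcd1 was chosen on, so it is a description. It did not pass without the female or male mouse of P1 (0.123 and 0.141), without the female or male hyperoxia mouse (0.0606 and 0.0718) or with limma (0.193). Wfdc1 had 0.183 with edgeR and passed with DESeq2 (0.000796), and Slc6a2 had a difference of 4.62 (SE 4.89, adjusted p = 0.906 with edgeR). Of 14666 genes 0.0341% were called. Because Lmcd1 and Wfdc1 had no read in veins at E18.5, the size of their terms is not given.

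**Figure D4:**
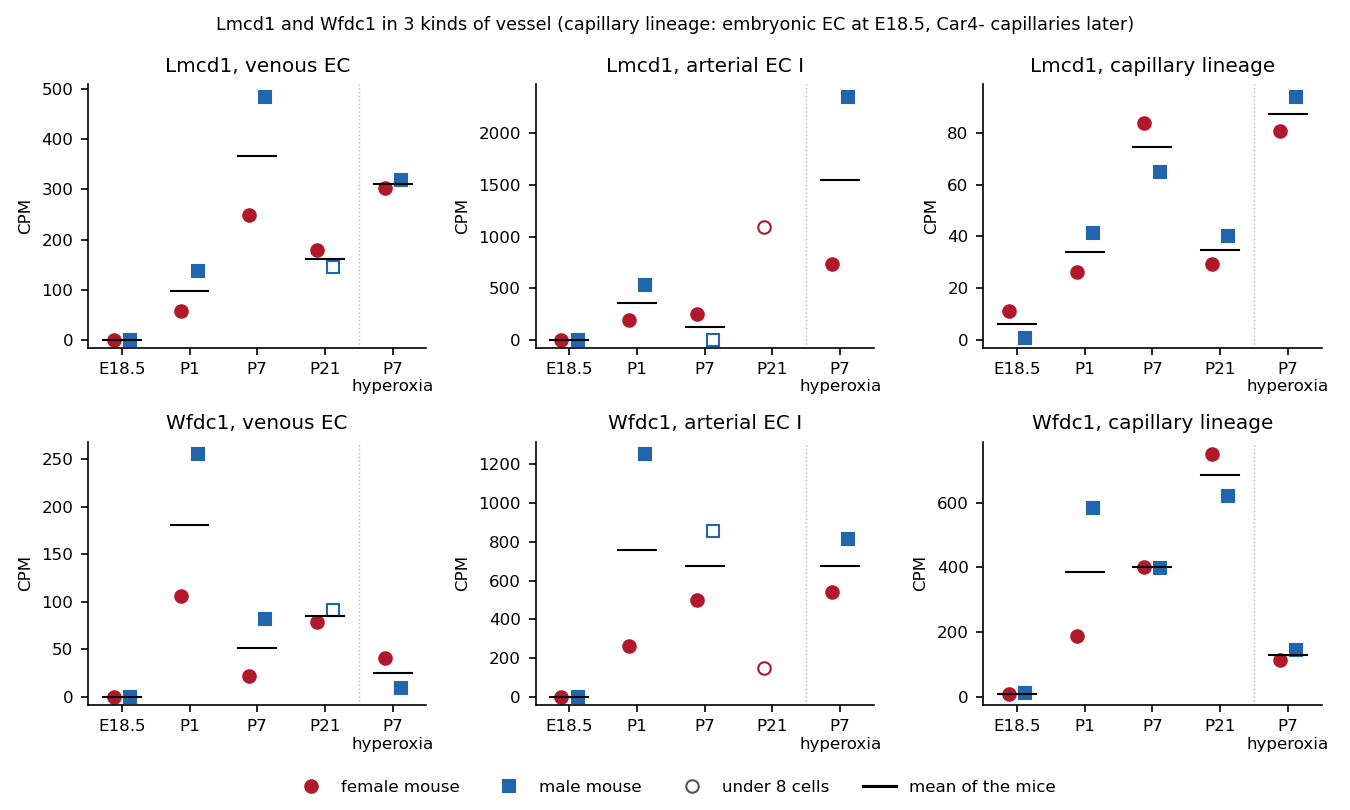
Lmcd1 and Wfdc1 by group in venous EC, arterial EC I and the capillary lineage, in CPM of the reads summed per mouse. Circles are female and squares male mice; in venous EC and arterial EC I Lmcd1 has no read at E18.5, and Wfdc1 reaches no more than 10.9 CPM in all 3 at E18.5 and lies above 100 CPM in both mice of P1.

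In arterial EC I both genes were likewise at or near 0 before birth. Lmcd1 was at 0 and 0 CPM in the mice of E18.5 and at 191 and 532 CPM in those of P1, and Wfdc1 was at 0.543 and 0 CPM and then at 263 and 1254 CPM. These are sums of 10 to 15 cells and were not tested. Arterial EC II, with 4 and 6 cells at E18.5, differed from this: Lmcd1 was at 73.8 and 60.2 CPM and Wfdc1 at 382 and 774 CPM before birth. Under hyperoxia Lmcd1 in arterial EC I was at 737 and 2354 CPM, against 253 CPM in the P7 female mouse and 1.86 CPM in 4 cells of the P7 male mouse.

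In Car4- capillaries no later difference of the 6 genes passed edgeR's test. Between P7 and P21 Wfdc1 went from 403 and 397 CPM to 752 and 621 CPM (log2 difference 0.89, SE 0.50, adjusted p = 0.576 with edgeR) and Nr2f2 from 31.6 and 57.9 CPM to 10.8 and 11.5 CPM (-1.87, SE 0.54, adjusted p = 0.226 with edgeR). For Nr2f2 DESeq2 gave an adjusted p of 0.0120. Slc6a2 had a log2 difference of 6.04 (adjusted p = 0.450 with edgeR and 0.0272 with DESeq2) that rests on the few P21 cells described above. Of all genes 0.267% were called, and none of the 6 was among them. Between P1 and P7 0.0% of genes were called by edgeR, with 1632 of 14967 at an unadjusted p under 0.05, 318 called by DESeq2 and 0 by limma.

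Under hyperoxia Wfdc1 was lower in the Car4- capillaries of both mice, at 113 and 146 CPM against 403 and 397 CPM in normal air. The log2 difference was -1.65 (SE 0.51), and it did not pass the test with edgeR (adjusted p = 0.898, unadjusted 0.00550). It was the 1 gene of the 6 without overlap, as were 33.5% of all genes, and 0.00668% of genes were called. The difference between veins and capillaries in the response to hyperoxia was 0.56 for Wfdc1 (SE 0.93) and -1.77 for Slc6a2 (SE 2.18), both with an adjusted p of 1 with edgeR. In that test 0.0% of 14666 genes were called, 266 had an unadjusted p under 0.05, and 105 passed with DESeq2 and 1 with limma.

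The pathways around the 6 genes were followed in venous EC with 7 lists of 95 genes, chosen with earlier results of these data known. The table holds 93 of them, 71 were tested, and 50 reached a mean of 50 CPM in the veins of at least 1 group. None was called by edgeR in the 3 venous comparisons as fitted. In the 15 alternative fits at birth Serpine2 passed in 5 (DESeq2, adjusted p = 9.54e-06; no count filter, 0.000997; thinned cells, 0.0328; without the female or the male E18.5 mouse, 0.00671 and 0.0214). Gata3 passed in 2 (DESeq2, 0.0198; without the female E18.5 mouse, 0.0223), Nrp2 and Selp with DESeq2 (0.0284 and 0.0414) and Car2 without the male E18.5 mouse (0.0213). Of the 50, 9 had an unadjusted p under 0.05 with edgeR at birth (18%, against 8.71% of all genes). Between P1 and P7 5 did (10%, against 3.21%), and under hyperoxia 3 (6%, against 2.69%). A gene entered the 50 through whichever venous group it was high in, which can favour genes that differ. All genes had no such filter, so these shares, and the medians below, are descriptions that support nothing about the lists. At birth 27 of the 50 had a higher and 23 a lower fitted level at P1 (median log2 difference 0.0767, against 0.18 over all genes). Under hyperoxia 18 had a higher and 32 a lower one (-0.19, against 0.0123).

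Among 15 other vein genes, 14 passed that level, 7 with higher and 7 with lower fitted levels at P1 (median log2 difference -0.04, against 0.18 over all genes). Nrp2, a receptor of the VEGF family used by veins and lymphatics, was at 557 and 356 CPM at E18.5 and at 156 and 91.2 CPM at P1 (-2.08, adjusted p = 0.429 with edgeR). Selp, the adhesion molecule P-selectin, was at 0.975 and 0 CPM and then at 144 and 6.16 CPM (adjusted p = 0.555 with edgeR). Under hyperoxia Amigo2, a cell adhesion protein, was at 107 and 88.3 CPM against 753 and 181 CPM (-2.29, unadjusted p = 0.0197, adjusted p = 1 with edgeR). The 4 venous mice were ordered for Amigo2 as they were for Slc6a2. Amigo2 was named for its large change in this comparison, where 34.1% of all genes did not overlap. The shared order therefore supports nothing further.

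Of 19 artery and Notch genes, the programme that Nr2f2 restrains, 10 passed that level in veins, 8 with higher and 2 with lower fitted levels at P1 (median 0.27). Gja4, the gap junction protein connexin 37, had no read at E18.5 and was at 56.8 and 144 CPM at P1 (adjusted p = 0.159 with edgeR). Arterial markers were low in the venous sums as a whole, at 94.3 to 653 CPM for 7 markers against 3520 to 6170.4 CPM in arterial EC I sums of at least 8 cells. Of 14 partners and regulators of Nr2f2, 6 passed, 3 in each direction: the histone deacetylase Hdac1 was at 212 and 234 CPM and then at 85.6 and 105 CPM (-1.34), and the endothelial factor Erg at 37.0 and 46.0 CPM and then at 151 and 74.3 CPM (1.27).

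In veins the genes of amine handling listed beside Slc6a2 were not called, as Slc6a2 itself was not. Of 14, 4 passed that level, and the monoamine oxidases Maoa and Maob had log2 differences at birth of 1.27 and -1.92 with adjusted p-values of 0.655 and 0.688 with edgeR. Pam, an amidating copper monooxygenase, had 0.52 under hyperoxia. Of 13 carbonic anhydrases and IP3 receptors 6 passed, among them Car4, the surface carbonic anhydrase that names the Car4+ capillaries, with no read at E18.5 and 38.0 and 24.7 CPM at P1. Car2, a cytosolic carbonic anhydrase, was at 0.683 and 12.1 CPM and then at 47.1 and 57.9 CPM (3.01, adjusted p = 0.551 with edgeR).

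Of 11 LIM and GATA partners of Lmcd1, 9 passed that level, 5 with higher and 4 with lower fitted levels at P1. Gata3, a GATA factor, was at 165 and 388 CPM at E18.5 and at 64.3 and 57.4 CPM at P1 (-2.29, adjusted p = 0.414 with edgeR). Csrp1, a LIM-only protein of the cytoskeleton, had a log2 difference of 1.41 at birth and of -1.56 under hyperoxia. Of the 9 genes listed for Wfdc1 only Serpine2, an inhibitor of serine proteases, passed: it was at 327 and 444 CPM at E18.5, at 66.5 and 31.7 CPM at P1, at 579 and 353 CPM at P7 and at 1206 and 967 CPM under hyperoxia. Its difference at birth was -3.14 (SE 0.56, adjusted p = 0.159 with edgeR). Under hyperoxia it was 1.21 (SE 0.52, unadjusted p = 0.0387 with edgeR) and was not called after adjustment.

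The genes whose levels ran most like each member were found by Pearson correlation of log2(CPM + 1) over 50 sums of a mouse and a label, among 8946 genes. The sums share libraries and mice, so r is a description. Slc6a2 ran most like Tmem45a (r = 0.847), Mfap5 (0.813) and Lpcat2 (0.798), and Moxd1 like Mfap5 (0.897), Nrxn3 (0.888), P2ry6 (0.859) and Lpcat2 (0.852), so both lists held Mfap5 and Lpcat2. Car8 ran like P2ry6 (0.830), Mmp16 (0.795), Bst1 (0.792) and Moxd1 (0.782). Nr2f2 ran like Lbp (0.853), Chn2 (0.802), Lrg1 (0.796) and Pgm5 (0.793). Lmcd1 had lower values, with Rras2 (0.723), Chmp3 (0.637), Msmo1 (0.627) and Ntn1 (0.617), and Wfdc1 ran like Aldh2 (0.815), Klf3 (0.750), Ucp2 (0.737) and Pde3a (0.734). Between members r was 0.762 for Slc6a2 with Moxd1, 0.720 for Slc6a2 with Car8, 0.530 for Lmcd1 with Wfdc1 and -0.296 for Nr2f2 with Wfdc1.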

How the data were processed

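Reads were counted per gene and cell, and the authors deposited whole read counts with no normalization. STAR 2.5.2b, HTSeq 0.10 and the genome build GRCh38, a human build name, are given per the submitters' processing notes; the annotation is not given in the sources used here. Positions come from GENCODE M21 on GRCm38. A sample in the table is a single cell, and mice were taken as replicates. Cell labels, sort gates and runs are those of the labels; no cells were clustered again and no doublet caller was run. Counts were summed per mouse and label, and sums of at least 8 cells were tested with edgeR 4.0.16 (TMM, filterByExpr, quasi-likelihood F test, all groups of the class in 1 model, R 4.3.3) with Benjamini-Hochberg adjustment over all genes tested at 0.05. With fewer than 8 venous cells in its male mouse, P21 entered no venous fit. The model was tested on simulated data with 200 genes changed by a log2 difference of 3 in size. The spread was set equal for every gene there, so that test does not speak for the 6 genes. Precision rests on 203 venous cells and 2 mice per group. Shares of cells used cells thinned to 50000 reads; 11 shallower cells were left out. Alternatives were DESeq2 1.42.0, limma 3.58.1 on log2(mean CPM + 1), RLE factors, no count filter, CD31-gate cells alone, thinned cells, sex as a block and leaving out each mouse. The 6 genes and the lists were chosen with earlier results of these data known. Named are the 6 genes, the 4 genes most like each (mean of at least 10 CPM; 1 of these is not reported here), and, of each list, up to 4 genes with a mean of 50 CPM in a venous group and the largest change at birth or, for up to 2, under hyperoxia.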

Additional observations from a re-analysis of the deposited data

How the results depend on the processing

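Of 464 refitted log2 differences of the 6 genes, 416 kept direction and side of the threshold, 23 came to pass it, 5 ceased to and 20 changed sign. In veins at birth 3 of the 6 genes were called with DESeq2, with no count filter and with thinned cells in place of 1, and 1 to 3 without single mice; in the capillary lineage 2 were called with DESeq2 in place of 1 (1 to 2 without single mice), and between P7 and P21 2 in place of 0. The interaction at birth called 2 with DESeq2 and with no filter, 0 with limma, and 0 to 1 without single mice.

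Some signs changed, also of differences above 1 in size. Between P1 and P7 Moxd1 was -0.20 with thinned cells and -0.10 with limma, and under hyperoxia Lmcd1 was 0.00824 with limma. Without single mice, the log2 differences at birth ran from -0.88 to 0.0595 for Nr2f2, from -0.54 to 0.90 for Car8 and from -1.99 to 0.0265 for Moxd1. Between P1 and P7 they ran from -0.32 to 0.30 for Nr2f2 and from -0.28 to 0.60 for Moxd1. Under hyperoxia they ran from -0.0461 to 0.73 for Nr2f2, -0.68 to 0.16 for Car8, -0.34 to 1.71 for Moxd1, -0.46 to 0.26 for Lmcd1 and -2.34 to 0.0751 for Wfdc1, and -1.42 to 0.0845 for the Notch ligand Dll1; the difference from capillaries ran from -7.58 to 2.43 for Slc6a2 and from -0.70 to 1.76 for Wfdc1.

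Sex, the mark that mice of different groups share, did not pair them (correlations of deviations from -0.0164 to 0.0749). With sex as a replicate block, 1 of the 6 genes was called in veins at birth, and Nr2f2 between P1 and P7 was -0.0186 in place of 0.0242; the block changed no call of a member. Over all genes, DESeq2 called 572 in the capillary lineage at birth, 651 between P7 and P21, 198 under hyperoxia and 1034 in the interaction at birth, and limma 115, 88, 16 and 8, where edgeR called 74, 40, 1 and 5. With 2 mice per group and 11 venous cells per E18.5 mouse, reads of 1 cell can set a sum.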
